A study of Mus musculus with 59 samples.

Results

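After thyroid hormone (TH) was given to hypothyroid wild-type (WT) mice, 86 genes of brown adipose tissue (BAT) had lower mRNA levels at each of the 4 times sampled: 3, 6, 12 and 24 h. A gene was included when its raw count averaged 50 or more over the 20 WT mice, its name did not begin with mt-, and its mean on the log2 scale lay 0.7 or more below the mean of the mice without TH at every time. The scale was log2(CPM + 0.5), where CPM is a count scaled to the library total outside the mitochondrial genome. The 86 genes were 0.934% of the 9212 genes that passed the limit on counts, while 171 genes (1.86%) rose by as much at all 4 times. With library totals that include mt- genes, 50 genes met the rule. The genes were thus chosen by these WT values, and for that reason the values are described below without a test. The tests concern mice that took no part in the choice.

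The study profiled BAT RNA of 59 male C57BL/6J mice aged 8 to 12 weeks. In the TH experiment, all mice received propylthiouracil (PTU), which blocks thyroid hormone synthesis, in their food, and treated mice then had 1 injection of T3 and T4. There were 4 WT mice on PTU alone and 4 WT mice at each time after TH, and 5 BATKO mice on PTU alone and 5 taken 24 h after TH. In the temperature experiment, 4 control (CTRL) and 5 BATKO mice were housed at 30 °C, where the tissue is little stimulated, and 3 CTRL and 4 BATKO mice at 4 °C, where it makes heat. In the diet experiment, 4 CTRL and 2 BATKO mice had chow and 4 CTRL and 3 BATKO mice a high-fat diet (HFD). The table names give 24 h for the cold exposure and 3.5 d for the diet. What was altered in BATKO mice, and under which promoter, is not given in the labels, so the altered gene was not checked. Each library is labelled as a separate mouse, and p-values measure the spread between these mice only.

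TH acts through nuclear receptors that sit on chromatin and activate many genes when the hormone binds, whereas the way in which other genes are lowered is less well understood. In brown adipocytes, noradrenaline acts through the β3-adrenergic receptor, raises cAMP and switches on lipolysis and heat production. Insulin acts on the same cells through insulin receptor substrates and phosphoinositide 3-kinase (PI3K) to drive glucose uptake and lipid storage.

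Library totals ranged from 7612059 to 18073627 counts, of which 39.2% to 55.7% fell on mt- genes. In the TH experiment, the libraries of the WT and BATKO mice stood apart. The gene Gm10925 was at 0 in all 20 WT mice and took 6.32% to 10.2% of the counts outside mt- genes in the 10 BATKO mice. In all, 63 genes were at 0 in every WT mouse with a mean raw count of 50 or more in BATKO mice, and they held 10.2% to 14.8% of the BATKO counts. In the BATKO mice of the temperature and diet experiments, the gene with the largest share outside mt- genes was Scd1, at 1.85% to 4.90%. Gm10925 thus held a smaller share there. For the levels of WT and BATKO mice in the TH experiment, a difference in library processing and a difference in genotype cannot be told apart. Those levels are therefore set side by side without a test. The summed level of 11 brown adipocyte markers was 7317 to 9605 CPM in WT mice on PTU and 2045 to 3178 CPM in BATKO mice on PTU. Skeletal muscle markers varied between mice within every group, with sums from 25.1 to 2054 CPM in the WT mice. Their group means shifted too: all 19 genes of the muscle list past the limit on counts were at -0.7 or lower at 3 and 12 h (medians -2.24 and -2.47), and 18 were at 0.7 or higher at 6 and at 24 h (medians 1.15 and 1.25). All 4 erythroid genes were at 0.7 or higher at 3 h (median 1.08). None of the 86 genes was in the muscle or erythroid list, and the part of these shifts in the members' values was not tested. In bulk tissue, fewer cells of a type and less RNA per cell cannot be told apart.

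The rule itself requires a fall at 3 h that is kept to 24 h. Only its size and shape are described here, with the median of all genes for scale. On the log2 scale, the median difference from the PTU mean went from -0.99 (3 h) over -1.26 (6 h) and -1.40 (12 h) to -1.34 (24 h), while the median over all 9212 genes stayed between -0.05 and 0.04. Already at 3 h, 41 of the 86 genes had fallen by 1 or more on the log2 scale, and 69 had done so at 24 h. The lowest mean came at 3 h for 5 genes, at 6 h for 16, at 12 h for 31 and at 24 h for 34. Only 14 genes fell further at each step, and 70 were lower at 24 h than at 3 h. In 53 of the 86 genes, all 16 treated mice lay below all 4 PTU mice, against 2.42% of the 9212 genes, a share that the choice of genes fixes in large part. Close to the limit, the smallest of the 4 falls was -0.70 for Lnx2, Bcar3 and Zxdb, which were included, and -0.70 for Fam117a and -0.69 for Jun and Mgst2, which were not.

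**Figure D1:**
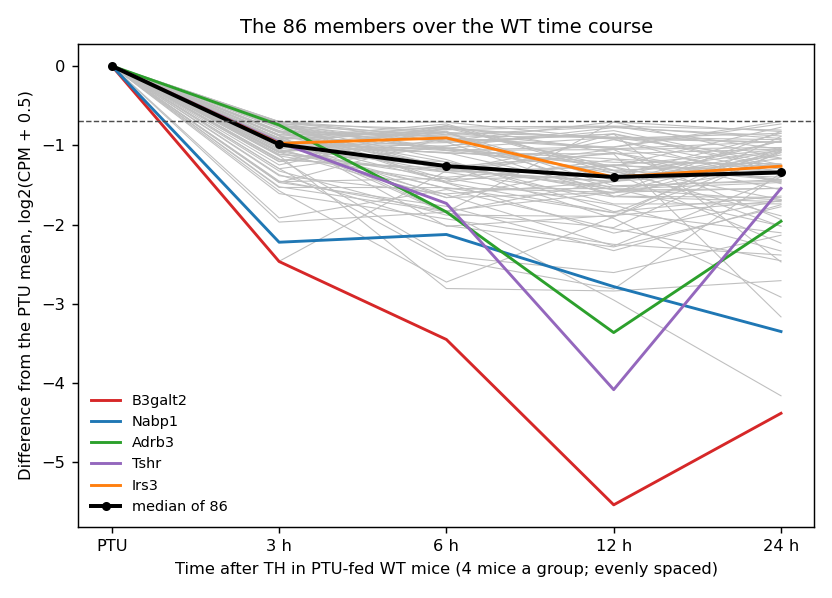
Difference of each group mean from the PTU mean on the log2(CPM + 0.5) scale (vertical axis) against the time after TH in WT mice (horizontal axis, evenly spaced, 4 mice a group). Each grey line is 1 of the 86 genes, the black line is their median, coloured lines are named genes, and the dashed line is the limit of -0.7; B3galt2 reaches -5.54 at 12 h, and Tshr and Adrb3 are lowest at 12 h and partly back at 24 h.

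The deepest mean fall was that of B3galt2, which encodes a galactosyltransferase of glycan synthesis. Its levels in CPM scaled by the trimmed mean of M-values (TMM), used for every value by mouse below and listed in ascending order, were 197, 208, 215 and 308 on PTU. They were 21.7, 44.1, 51.9 and 58.5 at 3 h and 3.67, 4.51, 5.38 and 5.92 at 12 h. At 24 h they were 5.05, 10.4, 15.0 and 15.7. Every treated mouse was below every PTU mouse, and the 24 h values lay partly above those at 12 h. Nabp1, which encodes a single-stranded DNA binding protein, had the highest mean raw count of the 86 genes and went from 538, 816, 1045 and 1076 CPM on PTU to 62.4, 82.8, 89.3 and 93.8 CPM at 24 h. Gpat3, a glycerol-3-phosphate acyltransferase that starts triglyceride synthesis, went from 26.5, 30.2, 36.6 and 40.7 CPM to 0.894, 1.52, 1.53 and 2.97 CPM. Its mean fell at each step, and every treated mouse lay below every PTU mouse. The mice at 3 h (6.32 to 14.8 CPM) and 6 h (6.74 to 10.8 CPM) overlapped.

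Several members encode receptors or act close to them. Adrb3, the β3-adrenergic receptor, was at 297, 316, 328 and 334 CPM on PTU. It was at 20.1, 23.8, 42.1 and 49.0 CPM at 12 h and 49.5, 51.4, 121 and 138 CPM at 24 h. The loss was largest at 12 h (-3.36) and smaller at 24 h (-1.96), with no overlap with PTU mice at any time. Tshr, the thyrotropin receptor, had the same shape, with 33.3, 41.1, 64.5 and 72.9 CPM on PTU, 2.204, 2.88, 2.98 and 3.29 CPM at 12 h and 14.5, 16.2, 18.7 and 18.7 CPM at 24 h, and it overlapped with PTU mice at 3 h only. Hcar1, the lactate receptor that restrains lipolysis, went from 30.6, 50.4, 74.3 and 78.5 CPM to 5.203, 9.81, 11.4 and 18.2 CPM at 24 h, and its lowest PTU mouse lay below the highest mouse at 3 h. Sucnr1, the succinate receptor, went from 15.7, 16.8, 23.6 and 24.8 CPM to 1.49, 3.09, 4.19 and 6.42 CPM without overlap. Mc5r, a melanocortin receptor, reached -2.33 at 24 h. Prlr, the prolactin receptor, reached -1.89, Acvr1c, an activin-type receptor kinase of fat cells, -1.69, and Gnai1, an inhibitory G protein subunit, -1.27. Cish, a feedback inhibitor of cytokine receptors, was lowest at 3 h (-1.97). Of 49 G protein-coupled receptors in a fixed list that passed the limit on counts, 4 were among the 86 genes: Tshr, Hcar1, Adrb3 and Mc5r. This was 8.16%, beside 0.934% of all genes past that limit. Sucnr1 is also such a receptor but is not in the list, so the count leaves it out.

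Of 51 genes of a fixed insulin, PI3K and mTOR list, 5 were members (9.80%, beside 0.934% of all 9212 genes past the limit on counts). They were the receptor substrates Irs1 and Irs3, the regulatory subunits Pik3r1 and Pik3r3, and the catalytic subunit Pik3cb. Pik3r1 fell within 3 h, from 132, 229, 270.1 and 315 CPM on PTU to 36.1, 36.9, 44.2 and 47.1 CPM, and was at 40.3, 71.1, 104 and 143 CPM at 24 h, where the highest mouse passed the lowest PTU mouse. Irs1 went from 33.7, 55.5, 70.2 and 87.2 CPM to 17.1, 17.2, 24.1 and 25.4 CPM at 24 h, and Irs3 from 17.7, 17.8, 18.6 and 20.2 CPM to 3.43, 7.28, 8.10 and 15.3 CPM, both without overlap at that time. The smallest falls of the 5 were those of Pik3r3, between -0.91 and -0.76. Over the whole list of 51 genes, 7, 10, 11 and 10 genes were at -0.7 or lower at 3, 6, 12 and 24 h, and 3, 5, 4 and 6 genes at 0.7 or higher. The list medians were 0.08, 0.03, 0.0009 and 0.11, beside 0.02, 0.04, -0.05 and 0.01 over all 9212 genes. The share of all genes past these limits at each time was not counted, so nothing more is read from the counts. Trarg1, which encodes a regulator of the insulin-responsive glucose transporter's traffic and is not in the list, went from 81.1, 97.2, 99.4 and 113 CPM to 14.1, 20.3, 27.6 and 27.8 CPM.

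Immediate early and growth-restraining genes gave 4 members of 29 in their list (13.8%, beside 0.934% of all genes past the limit on counts). They were Fos, a component of the AP-1 factor, Btg1 and Btg2, which restrain proliferation, and Zfp36l1, which promotes mRNA decay. Btg2 went from 48.4, 51.5, 64.0 and 88.3 CPM to 13.9, 13.9, 20.7 and 23.4 CPM at 24 h without overlap. Fos went from 17.7, 18.2, 24.2 and 41.3 CPM to 4.48, 6.99, 12.3 and 21.2 CPM, where 1 treated mouse lay above 2 of the PTU mice. Gem, a small GTPase that restrains calcium channels, fell to -2.81 at 6 h and was at -2.71 at 24 h. Transcription factors among the members included Nfil3, Zfp395, Zeb2, Klf11 and Trps1. Nfil3, a repressor that works with the circadian clock, was lowest at 6 h (-2.73) and back to -0.89 at 24 h. Ccng2, a cyclin of resting cells, was at -0.77 at 24 h. The cell cycle list gave 3 members of 18 (16.7%): Btg1, Btg2 and Ccng2.

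The list of solute carriers gave 3 members of 140 (2.14%) and that of fatty acid and triglyceride synthesis 2 of 39 (5.13%), Gpat3 and Elovl3. That of glucose and glycogen metabolism gave 2 of 48 (4.17%). Members were 0.934% of all genes past the limit on counts. The lists of ubiquitin and proteolysis (292 genes past the limit) and of the respiratory chain (99) gave 0. Elovl3, a fatty acid elongase and 1 of the 11 brown adipocyte markers, was at 241, 454, 501 and 623 CPM on PTU. It overlapped with these mice at 3, 6 and 12 h, where its highest values were 497, 405 and 342 CPM. At 24 h it was at 57.6, 77.1, 103 and 144 CPM. The sum of the 11 markers was 10004 to 17744 CPM at 24 h, above all PTU mice. In the longer brown adipocyte list of 17 genes, 5 were at -0.7 or lower and 7 at 0.7 or higher at that time, with a median of 0.20. The glycogen-targeting subunits of protein phosphatase 1 Ppp1r3c and Ppp1r3d were at -1.44 and -1.74 at 24 h, Hmgcs1 of cholesterol synthesis at -1.05 and Hacl1 of peroxisomal fatty acid oxidation at -1.34. Slc25a25, a mitochondrial ATP-Mg carrier, was lowest at 12 h (-2.33), Slc43a1, an amino acid transporter, was at -1.56 at 24 h, and Slc22a3, an organic cation transporter, at -1.17. Among kinases, Dapk1 of cell death control went from 22.8, 27.4, 29.9 and 32.4 CPM to 7.86, 9.05, 13.0 and 14.0 CPM, and Stk39, which regulates ion cotransporters, was at -1.30. Gja1, which forms gap junctions, was at -2.11 at 12 h. Of the 86 genes, 54 were in no list. The summed level of 6 general adipocyte markers, none of them a member, was 9129 to 10221 CPM on PTU and 4605 to 4818 CPM at 24 h, and the part of this in the members' fall was not tested.

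In the GENCODE annotation of GRCm38, 83 of the 86 genes were protein coding, Gm37305 and B430010I23Rik were antisense transcripts and A530053G22Rik was a processed transcript. Their median exon length was 4598.5 bases, against 4589 bases for all genes past the limit on counts. B3galt2 (chr1:143640664-143654614, + strand) lies within Cdc73 on the other strand, and 7.31% of its exon bases overlap exons of Cdc73. Adrb3 (chr8:27225776-27250616, - strand) shares 24.9% of its exon bases with Gm45470 on the other strand, Irs1 (chr1:82233101-82291416, - strand) 30.9% with Gm9747 and Zfp36l1 (chr12:80107754-80113013, - strand) 55.9% with Gm26669. Since the strand setting of the counting was not given in the sources used here, reads of such partners cannot be told apart. In all, 14 of the 86 genes shared over 10% of their exon bases with another gene. Bhlhb9, Arxes2 and Arxes1 lie within 200000 bases of each other on chromosome X. Arxes1 and Arxes2 are paralogs, and how reads were divided between them was not tested.

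Promoter windows of RefSeq (GRCm38.p6, 250 bases before to 50 after the start) were found for 66 of the 86 genes, 85 windows in all. Short motifs were searched on both strands of every window. The E-box, searched as CACGTG, was in 15 of the 85 windows (17.6%), against 10.3% of the 8891 windows of genes past the limit on counts and 7.15% of all 32851 windows. The cAMP response element, searched as TGACGTCA, was in 4 windows (4.71%, against 3.19% and 1.79%). The single repeat unit that thyroid hormone and other nuclear receptors recognize, AGGTCA, was in 6 windows (7.06%, against 12.2% and 16.3%). DR4, a direct repeat of this unit with 4 bases between the copies, was in 0 windows (0.0%, against 0.0% and 0.0152%), and at these shares the 0 says nothing of the members. The core of glucocorticoid receptor sites, AGAACA, was also in 6 windows (7.06%, against 11.7% and 19.0%). The FOXO site GTAAACA was in 3 windows (3.53%, against 2.44% and 3.65%), and the TATA box, searched as TATAAA, was in 9 windows (10.6%, against 7.09% and 13.6%). The windows of the gene with the deepest fall and of the insulin receptor substrates are shown, 5′ to 3′ on the gene's strand. Those of 2 of the 4 genes that hold TGACGTCA are shown too, picked for their lower calls in the cold and on HFD in CTRL mice. Dcun1d3 and Mcam also hold it and are not shown. The Slc25a25 window lies inside the gene (chr2:32414487-32451445, - strand), not at its outermost start. Capitals mark the E-box and the glucocorticoid receptor core (other strand) in B3galt2, the E-box in Irs1, a single nuclear receptor unit in Irs3, the cAMP response element and a single nuclear receptor unit (other strand) in Btg2, and the cAMP response element in Slc25a25.
B3galt2, chr1:143640447-143640746, strand +: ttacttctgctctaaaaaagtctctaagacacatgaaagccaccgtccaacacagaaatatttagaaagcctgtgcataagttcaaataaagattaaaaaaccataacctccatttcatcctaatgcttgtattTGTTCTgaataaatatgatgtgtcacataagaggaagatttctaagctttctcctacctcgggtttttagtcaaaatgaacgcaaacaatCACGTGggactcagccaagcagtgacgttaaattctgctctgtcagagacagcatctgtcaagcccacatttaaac
Irs1, chr1:82291390-82291689, strand -: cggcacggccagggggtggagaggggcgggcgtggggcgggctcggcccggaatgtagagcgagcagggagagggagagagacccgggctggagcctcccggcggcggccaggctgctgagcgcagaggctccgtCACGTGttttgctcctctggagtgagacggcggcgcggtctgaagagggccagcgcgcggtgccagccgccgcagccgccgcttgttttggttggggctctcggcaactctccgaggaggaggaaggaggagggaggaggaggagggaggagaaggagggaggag
Irs3, chr5:137645665-137645964, strand -: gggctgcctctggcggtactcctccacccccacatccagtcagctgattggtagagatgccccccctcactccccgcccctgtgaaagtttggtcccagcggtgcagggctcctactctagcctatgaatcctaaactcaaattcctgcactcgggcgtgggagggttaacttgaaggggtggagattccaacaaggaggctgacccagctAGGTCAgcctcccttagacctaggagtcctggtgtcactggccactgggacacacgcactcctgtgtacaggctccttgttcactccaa
Btg2, chr1:134079106-134079405, strand -: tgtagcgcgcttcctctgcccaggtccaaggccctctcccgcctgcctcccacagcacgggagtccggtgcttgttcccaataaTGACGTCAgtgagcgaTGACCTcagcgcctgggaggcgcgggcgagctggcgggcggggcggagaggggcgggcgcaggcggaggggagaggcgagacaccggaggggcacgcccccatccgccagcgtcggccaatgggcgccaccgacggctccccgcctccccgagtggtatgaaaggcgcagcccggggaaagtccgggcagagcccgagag
Slc25a25, chr2:32424017-32424316, strand -: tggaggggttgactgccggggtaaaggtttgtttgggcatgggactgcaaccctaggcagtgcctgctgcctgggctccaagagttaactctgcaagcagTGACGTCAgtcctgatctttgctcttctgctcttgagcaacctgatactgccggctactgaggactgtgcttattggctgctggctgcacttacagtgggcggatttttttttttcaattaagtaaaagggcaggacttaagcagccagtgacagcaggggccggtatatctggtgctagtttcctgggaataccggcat

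In BATKO mice, no member passed the test 24 h after TH. In edgeR's quasi-likelihood test on the 10 BATKO mice, 0 of the 86 genes were called (0.0% of 14854 genes tested in either direction), as in DESeq2. In 1 member all treated mice lay below all PTU mice (0.431% of genes), and in 0 above (0.337%). At an unadjusted p under 0.05, 11 members were lower and 0 higher, against 2.38% and 2.15% of all genes. The fitted log2 fold change was negative in 75 of the 86 genes, against 50.4% of all genes, with a median of -0.23. The middle of all genes tested, from the lower to the upper quartile, ran from -0.12 to 0.11.

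The largest of these differences still came with overlapping groups. B3galt2 was at 20.2, 37.9, 53.9, 55.4 and 66.2 CPM on PTU and 9.81, 21.0, 23.1, 24.4 and 38.5 CPM after TH, and the groups overlapped (log2 fold change -0.9996, SE 0.33, adjusted p = 0.944). Gem had the most negative value (-1.0004, SE 0.45, adjusted p = 0.944), with 0.640, 0.929, 1.11, 1.69 and 2.97 CPM on PTU and 0.338, 0.433, 0.609, 1.12 and 1.17 CPM after TH, which also overlapped. Bhlhb9, an X-linked gene, was at 4.99, 13.8, 15.5, 16.4 and 20.1 CPM and then 3.59, 4.08, 4.46, 15.3 and 15.3 CPM (-0.74, SE 0.45, adjusted p = 0.944). Zfp395, a zinc finger factor named here after its values were seen, had the smallest unadjusted p, with 22.9, 23.3, 28.1, 28.6 and 33.1 CPM on PTU and 14.9, 16.4, 17.3, 21.0 and 23.2 CPM after TH (-0.55, SE 0.14, adjusted p = 0.944), where 1 treated mouse lay above 1 PTU mouse. At the other end, Fos (0.70, SE 1.10, adjusted p = 0.968), Mest, an imprinted gene (0.45, SE 0.27, adjusted p = 0.944), and Prlr (0.48, SE 0.45, adjusted p = 0.950) had the highest values. Fos ranged from 2.05 to 99.6 CPM on PTU and reached 109 CPM after TH. Prlr was at 1.76, 2.29, 2.52, 3.13 and 10.2 CPM after TH, and without the highest of these mice (replicate 8) its log2 fold change was -0.27. Without replicate 9 of the same group, that of Fos was -0.10.

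Set side by side with no test, all 86 genes had a smaller fall in BATKO than in WT mice at 24 h, with medians of -0.25 and -1.33 on the log2 scale of TMM CPM, and 5 genes fell by 0.7 or more in BATKO mice. The choice of genes favours the WT fall and with it a high WT level on PTU. It thus also favours a lower level on PTU in BATKO mice, and its part in the levels below was not tested. The level on PTU was lower in BATKO than in WT mice for 78 of the 86 genes, with a median of -1.12 against -0.20 for all genes past the limit on counts. At 24 h after TH, the corresponding medians were 0.02 and -0.22. Adrb3, at 297, 316, 328 and 334 CPM in WT mice on PTU, was at 68.1, 107, 111, 120.0 and 135 CPM in BATKO mice on PTU. Sucnr1 was at 1.54, 1.64, 2.36, 2.47 and 2.71 CPM in BATKO mice on PTU, below every WT mouse on PTU. Irs3 differed from these, with 23.6, 25.9, 28.5, 36.1 and 36.9 CPM in BATKO mice on PTU, all above the WT mice on PTU, and 18.8, 21.4, 27.3, 27.8 and 27.97 CPM after TH. The libraries of the genotypes stand apart as described above, and their part in these levels was not tested.

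**Figure D2:**
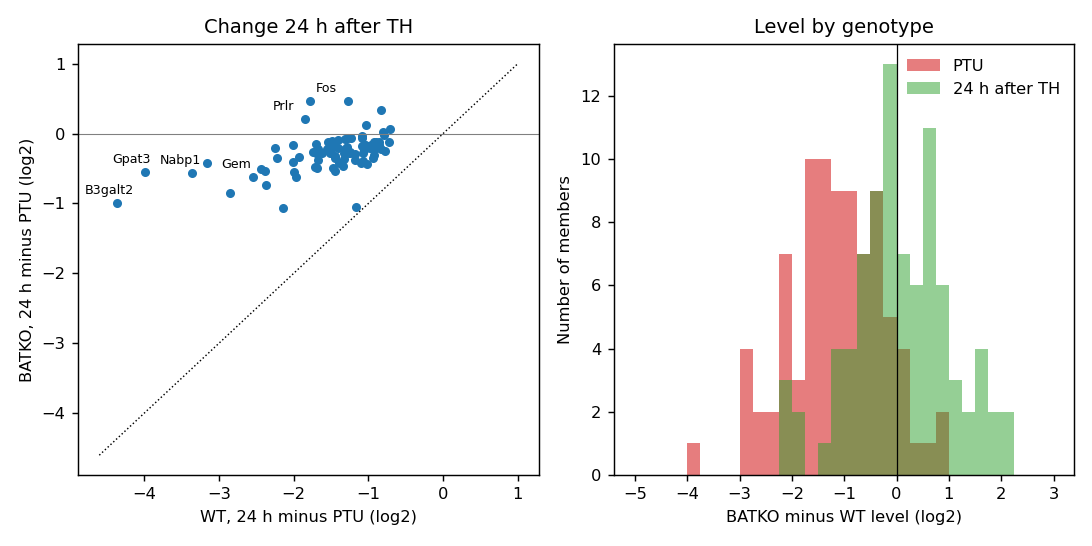
Left, change of each of the 86 genes 24 h after TH, log2 of TMM CPM + 0.5, in WT mice (horizontal axis) and in BATKO mice (vertical axis), with equal change on the dotted line; all points lie above it. Right, number of members by the BATKO minus WT level (log2) on PTU (red, median -1.12) and 24 h after TH (green, median 0.02). The choice of genes favours a high WT level on PTU.

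In the cold experiment, 56 of the 86 members changed in CTRL mice. At 4 °C against 30 °C, 41 of the 86 genes were called lower (22.6% of 13267 genes tested) and 15 higher (26.5%), by edgeR's quasi-likelihood test over the 16 mice with a Benjamini-Hochberg adjusted p under 0.05. The median of the members was -0.61 and that of all genes -0.01. Of the 41 genes lower in the cold, 35 stayed called whichever 1 of the 7 CTRL mice was left out, as did 9 of the 15 higher. Non-overlapping groups gave the same picture, with all 4 °C mice below all 30 °C mice in 37 members (23.7% of all genes) and above in 13 (26.7%). Summed brown adipocyte markers were 890 to 2970 CPM at 30 °C and 18060 to 23257 CPM at 4 °C, erythroid markers 177 to 333 and 766 to 1711 CPM, and immune markers 129 to 215 and 74.4 to 110.1 CPM. In the fixed lists, 8 of 20 immune genes were called lower and 0 higher (median -0.80), and 40 of 91 extracellular matrix genes lower and 9 higher (median -0.62). The 24 skeletal muscle genes had a median of -2.35 with 0 called. The part of these shifts in the members' changes was not tested.

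Of the 5 insulin signalling members, 3 fell in the cold in CTRL mice. Irs3 was at 21.5, 27.1, 28.4 and 30.2 CPM at 30 °C and 4.18, 5.53 and 6.01 CPM at 4 °C, a log2 fold change of -2.35 (SE 0.27, adjusted p = 3.73e-06). Irs1 was at 29.8, 29.9, 30.3 and 31.7 CPM and then 7.62, 10.1 and 14.6 CPM (-1.4974, SE 0.22, adjusted p = 4.17e-05), and Pik3r1 at 73.6, 79.0, 86.6 and 122 CPM and then 23.1, 24.9 and 37.3 CPM (-1.67, SE 0.31, adjusted p = 2.88e-04). None of these 3 genes overlapped between temperatures. Pik3cb (0.27) and Pik3r3 (0.40) did not pass the test. In the whole insulin list, 18 of 60 genes tested were lower and 15 higher, beside 22.6% and 26.5% of all genes, so no more is read from the count of 3.

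The strongest call among the lower members was Stk39, at 22.3, 23.3, 24.6 and 27.4 CPM at 30 °C and 4.63, 4.94 and 6.14 CPM at 4 °C (-2.22, SE 0.21, adjusted p = 4.69e-07). Steap4, a metalloreductase of adipocytes, was at 123, 136, 149 and 155 CPM and then 20.3, 22.5 and 34.1 CPM (-2.46, SE 0.24, adjusted p = 7.08e-07). Hspa12a, an atypical member of the heat shock protein family, was at 31.0, 32.1, 41.3 and 43.1 CPM and then 10.6, 10.9 and 15.7 CPM (-1.57, SE 0.20, adjusted p = 7.79e-06). In each of these genes the temperatures were apart in every mouse. Of the receptors, Hcar1 fell from 15.7, 21.3, 23.8 and 25.8 CPM to 1.84, 3.76 and 5.08 CPM (-2.59, SE 0.33, adjusted p = 1.07e-05) and Sucnr1 from 2.91, 3.60, 5.12 and 6.71 CPM to 1.11, 1.72 and 1.92 CPM (-1.53, SE 0.38, adjusted p = 0.00329). All 4 immediate early members were called lower (22.6% of all genes were), and Btg2 went from 95.9, 109.6, 445 and 569 CPM to 15.5, 20.2 and 32.8 CPM (-3.74, SE 0.65, adjusted p = 1.83e-04). Over the whole immediate early list, 22 of 36 genes were lower and 2 higher, beside 22.6% and 26.5% of all genes. B3galt2 fell from 9.91, 11.3, 13.8 and 14.8 CPM to 0.339, 0.369 and 4.62 CPM (-2.77, SE 0.73, adjusted p = 0.00474), with 1 of the 3 cold mice (replicate 5) well above the other two and a value of -5.11 without it.

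Other members rose in the cold. Elovl3 went from 0.0798, 0.400, 0.665 and 2.24 CPM at 30 °C, near the lowest values that can be counted, to 912, 1062 and 1188 CPM at 4 °C (10.33, SE 0.77, adjusted p = 6.95e-08). Hmgcs1 rose from 14.5, 29.3, 32.4 and 48.3 CPM to 86.2, 98.3 and 129 CPM (1.75, SE 0.27, adjusted p = 7.17e-05) and Gja1 from 59.8, 71.4, 76.2 and 80.2 CPM to 119, 159.7 and 182 CPM (1.10, SE 0.16, adjusted p = 3.95e-05). The antisense transcript B430010I23Rik rose from 1.597, 3.66, 4.00 and 5.73 CPM to 15.5, 20.9 and 24.8 CPM (2.45, SE 0.28, adjusted p = 3.88e-06). In each of these 4 genes every cold mouse was above every mouse at 30 °C. Adrb3 rose from 26.6, 76.3, 81.3 and 90.3 CPM to 118, 125 and 202 CPM (1.12, SE 0.31, adjusted p = 0.00704), a call that was lost without CTRL replicate 1 at 4 °C. Egln3, an oxygen-sensing prolyl hydroxylase, rose too (1.62, SE 0.29, adjusted p = 2.47e-04), as did Nabp1 (1.13, SE 0.27, adjusted p = 0.00248), the gene with the second deepest fall after TH.

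In BATKO mice, by the same edgeR test, the cold lowered 19 members (18.9% of all genes) and raised 25 (21.4%), with a median of -0.04 over the 86 genes and -0.02 over all genes. Mice of the temperatures did not overlap in 15 members that were lower (14.3%) and 24 that were higher (16.8%). In the fixed lists, 11 of 25 endothelial genes were called lower and 2 higher, 27 of 91 extracellular matrix genes lower and 14 higher and 6 of 20 immune genes lower and 2 higher, and the skeletal muscle genes had a median of -1.74. Summed brown adipocyte markers were 1854 to 3223 CPM at 30 °C and 9829 to 17810 CPM at 4 °C. The part of these shifts in the members' changes was not tested. Of the 19, 17 were also among the 41 lower in CTRL mice (89.5% of the 19 and 41.5% of the 41), and over all genes these shares were 72.1% and 60.2%. Of the 25 higher, 13 were among the 15 higher in CTRL mice (52.0% and 86.7%), against 81.3% and 65.6% over all genes. C9orf72, which acts in membrane traffic, was called lower in CTRL mice (-0.52, SE 0.20, adjusted p = 0.0418) and higher in BATKO mice (0.81, SE 0.17, adjusted p = 0.00131). The first of these calls was lost without CTRL replicate 1 or 2 at 4 °C or replicate 20, 21 or 22 at 30 °C.

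Elovl3 rose from 0.261, 0.271, 0.464, 1.18 and 1.40 CPM to 215, 407, 503 and 1095 CPM in BATKO mice (9.59, SE 0.68, adjusted p = 1.53e-07), and Gja1 from 53.4, 67.3, 67.6, 70.9 and 78.7 CPM to 154, 174, 177 and 200.03 CPM (1.38, SE 0.14, adjusted p = 2.61e-06). Ppp1r3d rose from 23.3, 30.1, 30.1, 34.2 and 34.9 CPM to 59.4, 60.5, 64.5 and 87.5 CPM (1.16, SE 0.16, adjusted p = 4.17e-05). B430010I23Rik rose as well (2.09, SE 0.25, adjusted p = 9.98e-06). In the first 3 of these genes the temperatures did not overlap. Among receptors, Tshr rose from 5.66, 6.30, 7.59, 11.1 and 11.5 CPM to 11.8, 16.3, 22.4 and 25.8 CPM (1.18, SE 0.34, adjusted p = 0.0115), and Prlr (2.65, SE 0.56, adjusted p = 0.00131) and Mc5r (1.27, SE 0.43, adjusted p = 0.0261) were called higher, the last not without BATKO replicate 8 at 4 °C. Of the genes that fell, Mest went from 4.35, 4.47, 7.72, 8.03 and 8.63 CPM to 1.73, 2.07, 2.31 and 2.59 CPM (-1.6033, SE 0.26, adjusted p = 1.52e-04), Steap4 had a log2 fold change of -1.40, Hspa12a of -1.5984 and Btg2 of -2.97. By the same edgeR test, Stk39 (-0.72, SE 0.16, adjusted p = 0.00257), Irs3 (-1.11, SE 0.22, adjusted p = 7.77e-04) and Hcar1 (-1.19, SE 0.26, adjusted p = 0.00175) were also lower. So was Irs1 (-0.56, SE 0.19, adjusted p = 0.0242), a call lost without BATKO replicate 7, 8 or 11 at 4 °C or 15 at 30 °C. B3galt2, at 3.895, 7.77, 8.35, 8.94 and 17.4 CPM at 30 °C and 3.95, 11.8, 13.2 and 25.4 CPM at 4 °C, did not pass the test in BATKO mice (0.55, SE 0.53, adjusted p = 0.423).

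**Figure D3:**
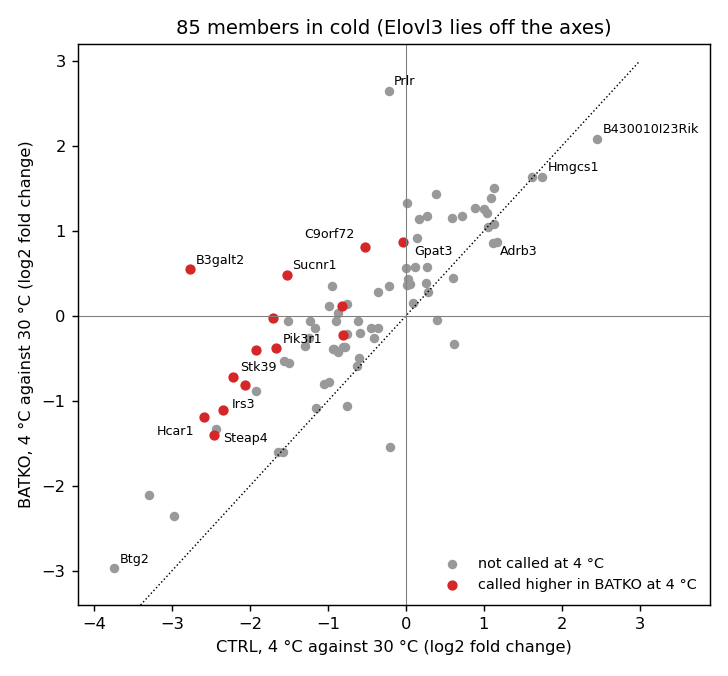
Log2 fold change of 85 members at 4 °C against 30 °C in CTRL mice (horizontal axis) and in BATKO mice (vertical axis), with equal change on the dotted line and red points for the 14 genes called higher in BATKO than in CTRL mice at 4 °C; Elovl3 (10.33 in CTRL and 9.59 in BATKO mice) lies outside the axes. Most points lie above the line, and B3galt2 is at -2.77 in CTRL and 0.55 in BATKO mice.

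At 4 °C, 14 members were higher in BATKO than in CTRL mice. In edgeR's quasi-likelihood test, 0.957% of all 13267 genes were called higher, and 0 members were lower (1.2% of all genes). DESeq2 gave 19 higher and 0 lower, and at an unadjusted p under 0.05, 2 members were lower and 36 higher (8.77% and 7.77% of all genes). The log2 fold change was positive in 76 of the 86 genes and negative in 10, with 49.1% of all genes negative, and its median was 0.43 against 0.01 over all genes. In 32 members, all 4 BATKO mice lay above all 3 CTRL mice (6.11% of all genes), and in 1 below (7.04%). The number of calls rested on few mice. It was 5 without BATKO replicate 7 or 8, 4 without BATKO replicate 12 or CTRL replicate 1, 2 without CTRL replicate 2, and 2 in a fit of these 2 groups alone. Stk39 and C9orf72 kept their call whichever 1 of the 7 mice at 4 °C was left out. Summed brown adipocyte markers were 9829 to 17810 CPM in BATKO and 18060 to 23257 CPM in CTRL mice at 4 °C, and the part of this difference was not tested. Of the 171 genes that rose after TH, 169 were tested, with 22 called lower, 0 higher and a median of -0.32.

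Stk39 was at 8.68, 13.8, 14.6 and 18.4 CPM in BATKO mice at 4 °C, all above the CTRL mice (1.41, SE 0.20, adjusted p = 0.00305). C9orf72 was at 17.7, 18.5 and 22.97 CPM in CTRL and 42.5, 43.2, 47.0 and 62.6 CPM in BATKO mice (1.31, SE 0.20, adjusted p = 0.00558). Irs3 was at 7.97, 15.0, 15.1 and 16.8 CPM in BATKO mice, again all above the CTRL mice (1.38, SE 0.27, adjusted p = 0.0172). Pik3r1, at 46.1, 53.3, 87.9 and 94.0 CPM, was likewise called higher (1.30, SE 0.30, adjusted p = 0.0354), while Irs1 did not pass (0.82, SE 0.22, adjusted p = 0.0616). The nutrient receptors Hcar1, at 7.25, 11.2, 12.8 and 16.4 CPM (1.73, SE 0.33, adjusted p = 0.0161), and Sucnr1, at 3.41, 4.89, 4.98 and 5.28 CPM (1.54, SE 0.38, adjusted p = 0.0453), were called higher without overlap. So was Gpat3, at 13.8, 18.8 and 19.6 CPM in CTRL and 26.8, 30.8, 33.7 and 41.6 CPM in BATKO mice (0.93, SE 0.22, adjusted p = 0.0382). B3galt2 had the largest fold change of the 14 (2.90, SE 0.73, adjusted p = 0.0484), and its lowest BATKO mouse lay below the highest CTRL mouse. Its call was lost without BATKO replicate 7, 8 or 12 or CTRL replicate 1 or 2, and its value was 5.19 without CTRL replicate 5. The other called genes were Zfp395, Sntb1, Steap4, Trps1, Gm37305 and Slc22a3, with log2 fold changes from 0.88 to 1.31.

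At 30 °C, no member was called between genotypes (0.0% of genes were lower and 0.00754% higher). By edgeR 7 members were lower and 1 higher at an unadjusted p under 0.05 (2.33% and 6.78% of all genes), DESeq2 also gave 0 calls, and the median was -0.04. In 1 member all BATKO mice were below all CTRL mice (0.95%), and in 0 above (2.2%). The test of the difference between the temperature effects called 6 members, all with a less negative or more positive effect in BATKO mice (0.317% of genes), and 0 in the other direction (0.807%). They were Stk39 (1.5046, SE 0.26, adjusted p = 0.0200), C9orf72 (1.33, SE 0.26, adjusted p = 0.0305), the syntrophin Sntb1 (1.68, SE 0.36, adjusted p = 0.0357), the repressor Zeb2 (1.45, SE 0.31, adjusted p = 0.0368), Bhlhb9 and Trps1. This count was moved by 13 of the 16 mice left out in turn, from 0 without CTRL replicate 1 at 4 °C to 19 without CTRL replicate 5 at 4 °C, and it was 18 with DESeq2. Zeb2 was at 39.1, 39.2, 48.4 and 61.6 CPM at 30 °C and 12.8, 14.6 and 21.9 CPM at 4 °C in CTRL mice. In BATKO mice it was at 24.3, 24.8, 32.9, 36.9 and 42.1 CPM and 23.3, 31.0, 33.8 and 35.1 CPM, with the temperatures overlapping. The median of this difference over the 86 genes was 0.55, against -0.02 over all genes.

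**Figure D4:**
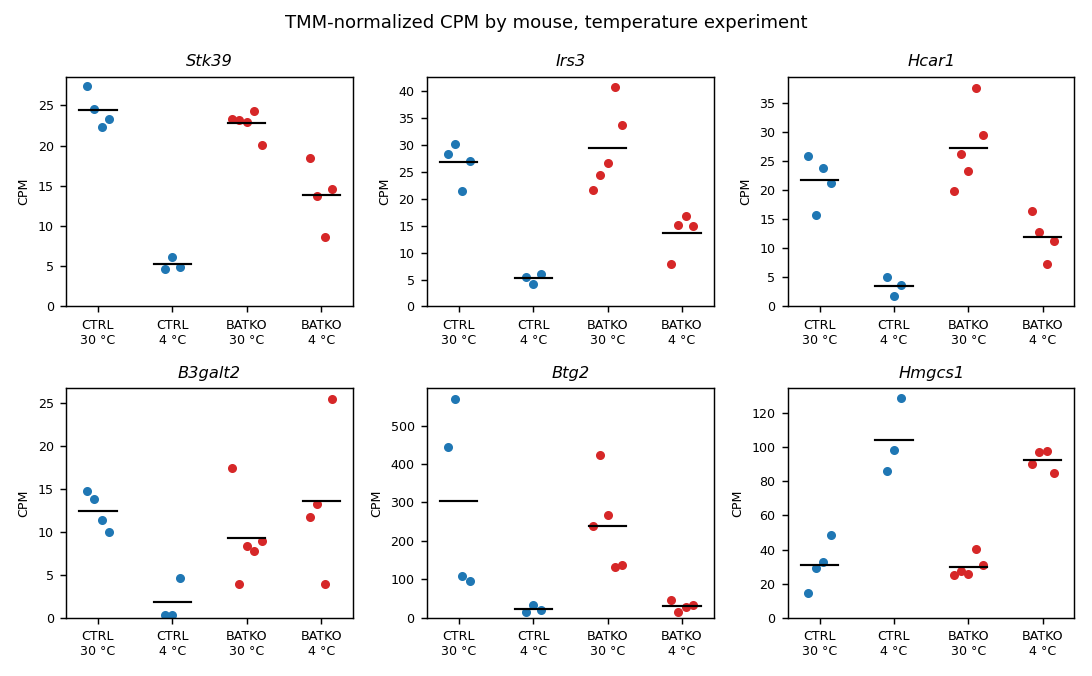
TMM-normalized CPM (vertical axis, from 0) of 6 members in each mouse of the temperature experiment, by genotype and temperature (horizontal axis). Points are mice, blue for CTRL and red for BATKO, and bars are group means. Stk39, Irs3 and Hcar1 are lowest in the 3 CTRL mice at 4 °C, and were called lower at 4 °C in both genotypes. Btg2 is low and Hmgcs1 high at 4 °C in both genotypes.

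High-fat feeding moved fewer members. In CTRL mice, 8 of the 86 genes were called lower on HFD than on chow (2.04% of 12932 genes) and 2 higher (1.89%), with a median of -0.01. The 8 were Gem, Btg2, Slc25a25, Enpep, Irf2bp2, Slc43a1, Net1 and Pik3cb, and the 2 were Adrb3 and Hmgcs1. All groups were apart in 12 members that were lower (5.58% of all genes) and 4 that were higher (5.15%). The count of 8 was 4 without CTRL replicate 2 on chow or 10 on HFD, and 5 without replicate 4 on chow or 11 on HFD. That of 2 was 4 without replicate 3 on chow. With no filter on low counts 13 were lower and 6 higher, and DESeq2 called 4 higher. Of the 8 lower genes, 6 were also lower in the cold in CTRL mice (14.6% of the 41, against 5.40% over all genes), and both higher genes were also higher in the cold (13.3% of the 15, against 3.44%). Taken from the diet calls, 60.5% of all genes lower and 48.5% of all genes higher on HFD had the same call in the cold. These experiments share no mice, and the cold call of Slc25a25 was lost without any of 6 of the 7 CTRL mice, replicates 1, 2 and 5 at 4 °C and 20, 21 and 22 at 30 °C. Whichever 1 of the 8 CTRL mice was left out, Slc25a25, Slc43a1, Net1, Adrb3 and Hmgcs1 kept their diet call.

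Slc25a25 was at 20.2, 20.3, 22.7 and 27.6 CPM on chow and 5.90, 10.2, 10.5 and 11.5 CPM on HFD (-1.25, SE 0.18, adjusted p = 0.00225), and Slc43a1 at 9.57, 12.3, 13.1 and 13.9 CPM and then 1.68, 3.05, 4.89 and 5.29 CPM (-1.72, SE 0.27, adjusted p = 0.00394). Net1, a guanine nucleotide exchange factor, was at 147, 171, 192 and 200.3 CPM and then 77.8, 78.3, 79.2 and 106 CPM (-1.06, SE 0.19, adjusted p = 0.00826). The diets did not overlap in these 3 genes. Irf2bp2, a transcriptional cofactor, was at 59.2, 62.1, 64.6 and 67.3 CPM and then 34.8, 37.3, 46.3 and 50.4 CPM (-0.58, SE 0.13, adjusted p = 0.0215), a call lost without CTRL replicate 4 on chow or without replicate 10 or 11 on HFD. Pik3cb was at 13.1, 13.2, 13.3 and 13.4 CPM and then 9.27, 9.32, 9.54 and 10.2 CPM (-0.47, SE 0.11, adjusted p = 0.0257), lost without replicate 2 or 4 on chow or 10 on HFD. Adrb3 was higher on HFD, with 60.1, 66.6, 73.2 and 100.3 CPM on chow and 149, 149, 174 and 229 CPM on HFD (1.22, SE 0.21, adjusted p = 0.00688), as was Hmgcs1, with 66.7, 75.1, 81.3 and 96.7 CPM and 112, 122, 131 and 145 CPM (0.67, SE 0.13, adjusted p = 0.0141). Of the whole immediate early list, 15 of 36 genes were lower on HFD and 0 higher, beside 2.04% and 1.89% of all genes. Summed brown adipocyte markers were 2572 to 4254 CPM on chow and 3879 to 5877 CPM on HFD. In the fixed lists, 17 of 89 extracellular matrix genes were called higher and 3 lower (median 0.40), the immune genes had a median of 0.59 and the skeletal muscle genes of -2.55. Their part in the members' changes was not tested.

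With 2 BATKO mice on chow and 3 on HFD, edgeR called 0 members between the diets (0.0387% of genes lower and 0.0309% higher), with 11 lower and 11 higher at an unadjusted p under 0.05 (7.08% and 8.36% of all genes), and DESeq2 called 3 lower and 4 higher. Between genotypes, edgeR called 0 members on HFD (0.0% of genes in either direction) and 0 on chow (0.0%). On HFD, 1 member was lower and 17 higher at an unadjusted p under 0.05 (2.68% and 2.67% of all genes), and DESeq2 called 2 higher. On chow, these were 3 and 9 (3.38% and 4.54%), and DESeq2 called 1 higher. The median genotype difference on HFD was 0.14 over the 86 genes. On HFD, Gja1 was at 76.2, 80.6, 82.2 and 91.2 CPM in CTRL and 123, 143 and 152 CPM in BATKO mice (0.75, SE 0.11, adjusted p = 0.0919), and B3galt2 at 10.7, 22.996, 25.4 and 27.5 CPM and 43.7, 49.6 and 64.1 CPM (1.28, SE 0.26, adjusted p = 0.346). Both are named here after their values were seen. All 3 BATKO mice lay above all 4 CTRL mice in both genes, as in 13 members in all (3.35% of all genes), with 0 members the other way (2.66%). On chow, 14 members were wholly higher (9.16%) and 6 wholly lower (8.58%) in the 2 BATKO mice. Between diets in BATKO mice these counts were 18 (19.1%) and 17 (17.3%). The test of the diet effects against each other called 0 members (0.0%), with 3 lower and 4 higher at an unadjusted p under 0.05 (3.45% and 2.27% of all genes), and DESeq2 gave 0.

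**Figure D5:**
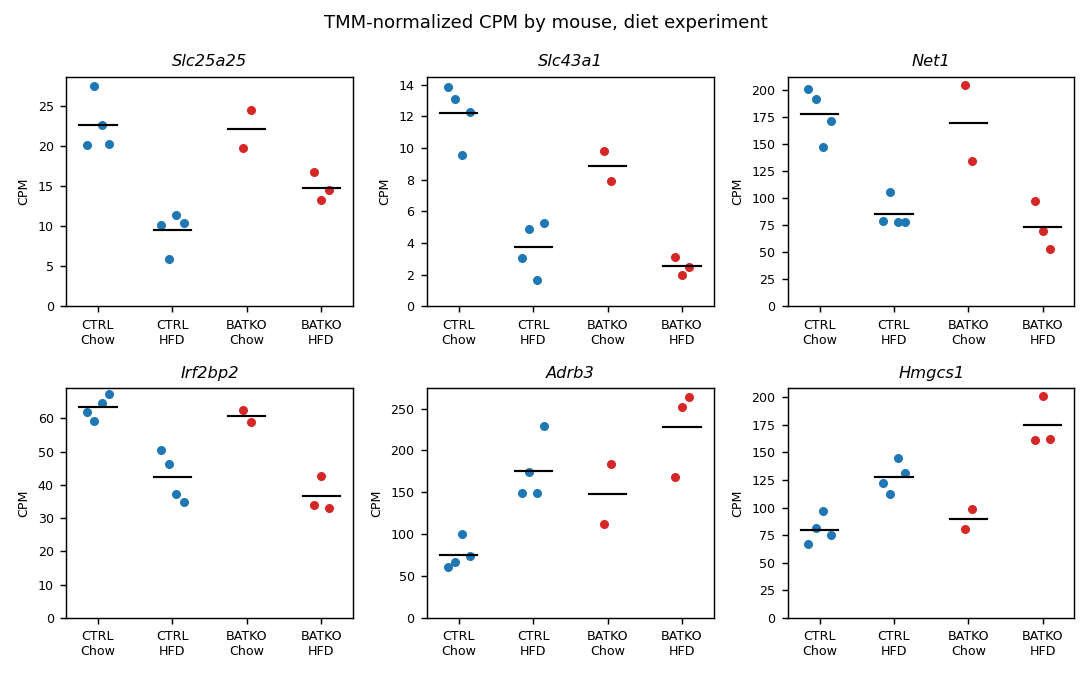
TMM-normalized CPM (vertical axis, from 0) of 6 members called on HFD in CTRL mice, in each mouse of the diet experiment, by genotype and diet (horizontal axis). Points are mice, blue for CTRL and red for BATKO, and bars are group means; Slc25a25, Slc43a1, Net1 and Irf2bp2 are lower and Adrb3 and Hmgcs1 higher on HFD in every CTRL mouse.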

How the data were processed

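BAT RNA of 59 mice was extracted with Trizol and sequenced after a total RNA SENSE library kit. The authors aligned reads to GRCm38 (mm10) with Bowtie, removed reads of low alignment quality, counted them per gene with htseq-count and deposited raw counts per gene in 3 tables. The submitters' processing notes name Bowtie2 2.3.2.2 and DESeq2. The gene annotation and strand setting are not given in the sources used here. All columns were matched to mice by the labels, 0 were left out, and each group was tested within its own table.

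The 86 genes were found from CPM on counts outside mt- genes. Counts were tested with edgeR 4.0.16 (R 4.3.3, TMM, mean normalized count above 10, quasi-likelihood test, Benjamini-Hochberg over all genes tested, 0.05, no limit on fold), checked on simulated data, with DESeq2 1.42.0 as an alternative. SE is the absolute log2 fold change divided by the square root of F. Values by mouse are CPM on TMM library sizes within each experiment, and library totals were 7612059 to 18073627 counts. No 2 replicates agreed within sampling noise (lowest chi-square per degree of freedom 7.47 over 91 pairs).

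The members and the gene lists were chosen with earlier results of these data known. Genes named are the 10 deepest falls, the 3 nearest the limit on either side, up to 4 called members a direction in each comparison with the smallest adjusted p, the 3 lowest and 3 highest in BATKO mice after TH and up to 4 members of each list. Others were named after their values were seen.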

Additional observations from a re-analysis of the deposited data

Results flagged for a closer look

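Among the values by mouse, 226 sets of 4 or 5 mice (1 gene in 1 group) were checked for a mouse whose gap to the nearest other exceeded Dixon's 95% critical value, and 14 (6.19%) had one. Chance gives about 1 in 20. B3galt2 in replicate 3 of the WT mice on PTU was at 308 CPM, with the others between 197 and 215 CPM. Tshr in replicate 8 of the WT mice 3 h after TH was at 35.9 CPM, with the others between 22.8 and 23.6 CPM. Adrb3 in replicate 12 of the WT mice 6 h after TH was at 153 CPM, with the others between 67.8 and 79.1 CPM. Dapk1 in replicate 17 of the BATKO mice on PTU was at 14.9 CPM, with the others between 7.04 and 8.70 CPM. Pik3r1 in replicate 15 of the BATKO mice 24 h after TH was at 128 CPM, with the others between 43.0 and 65.6 CPM. Btg2 in replicate 11 of the WT mice 3 h after TH was at 13.7 CPM, with the others between 27.5 and 29.5 CPM. Btg2 in replicate 3 of the BATKO mice on PTU was at 64.5 CPM, with the others between 12.3 and 18.2 CPM. Fos in replicate 3 of the BATKO mice on PTU was at 99.6 CPM, with the others between 2.05 and 12.2 CPM. Prlr in replicate 8 of the BATKO mice 24 h after TH was at 10.2 CPM, with the others between 1.76 and 3.13 CPM. Elovl3 in replicate 15 of the BATKO mice 24 h after TH was at 154 CPM, with the others between 7.57 and 27.97 CPM. B430010I23Rik in replicate 7 of the BATKO mice at 4 °C was at 19.9 CPM, with the others between 16.8 and 17.1 CPM. C9orf72 in replicate 17 of the BATKO mice at 30 °C was at 37.0 CPM, with the others between 24.3 and 27.7 CPM. Tshr in replicate 19 of the CTRL mice at 30 °C was at 29.6 CPM, with the others between 7.98 and 11.5 CPM. Net1 in replicate 9 of the CTRL mice on HFD was at 106 CPM, with the others between 77.8 and 79.2 CPM. Replicate 3 of the BATKO mice on PTU was apart in both Btg2 and Fos, and replicate 15 of the BATKO mice 24 h after TH in both Pik3r1 and Elovl3.

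The effect of temperature differed between genotypes, by edgeR's quasi-likelihood test of the interaction, in 6 members. For Bhlhb9 the difference was 1.30 (adjusted p = 0.0375), with -0.95 in CTRL and 0.35 in BATKO mice. For Zeb2 the difference was 1.45 (adjusted p = 0.0368), with -1.52 in CTRL and -0.06 in BATKO mice. For Sntb1 the difference was 1.68 (adjusted p = 0.0357), with -1.71 in CTRL and -0.03 in BATKO mice. For C9orf72 the difference was 1.33 (adjusted p = 0.0305), with -0.52 in CTRL and 0.81 in BATKO mice. For Trps1 the difference was 1.53 (adjusted p = 0.0487), with -1.93 in CTRL and -0.40 in BATKO mice. For Stk39 the difference was 1.5046 (adjusted p = 0.0200), with -2.22 in CTRL and -0.72 in BATKO mice. None of these calls remained under all of the fits that left out 1 mouse.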

How the results depend on the processing

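The number of genes that met the limit was 50 with library totals that include mt- genes, which moved the median gene by 0.08, 0.14, 0.03 and 0.16 at 3, 6, 12 and 24 h, and it was 194 with a limit of -0.5 and 28 with a limit of -1. It ran from 72 to 98 when each WT mouse was left out in turn. In the comparisons below, only mice of the groups compared were left out, 1 at a time. Members higher in BATKO than CTRL mice at 4 °C numbered 2 in a fit of the 2 groups and 2 to 15 when a mouse was left out. For the interaction with temperature, DESeq2 gave 18 higher and 1 lower, and leaving out a mouse gave 0 to 19 higher and 0 to 1 lower. On HFD in CTRL mice, no filter on low counts gave 13 lower and 6 higher and DESeq2 4 higher, and leaving out a mouse gave 4 to 10 lower and 2 to 4 higher. On HFD in BATKO mice, DESeq2 gave 3 lower and 4 higher, no filter 6 and 6, and a fit of the 2 groups 1 and 3, with 0 to 1 lower when a mouse was left out. Between genotypes on HFD, DESeq2 gave 2 higher, no filter 6, and leaving out a mouse 0 to 2. On chow, DESeq2 and the fit of the 2 groups each gave 1 higher and no filter gave 3 higher and 2 lower. In BATKO mice after TH, leaving out a mouse gave -0.27 to 0.71 for Prlr and -0.10 to 2.65 for Fos, with the negative values without replicate 8 or 9 of the treated mice. The cause of these changes was not tested. Under the other planned settings, each count stayed within 1.5 times its value. No paired analysis was possible because no groups tested against each other share a replicate number. WT and BATKO mice on PTU share the numbers 2, 3 and 4, but their levels were set side by side without a test.

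Gem, at 2.97 CPM or less in BATKO mice after PTU or TH, rests on few counts, and groups of 2 or 3 mice limit the diet comparisons in BATKO mice and the cold comparisons in CTRL mice.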
